A study of Mus musculus with 16 samples.

Results

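The 9 genes described here encode CC chemokine ligands, small secreted proteins that draw leukocytes along a gradient: Ccl2, Ccl3, Ccl4, Ccl6, Ccl7, Ccl9, Ccl17, Ccl22 and Ccl24. They were chosen by symbol, as 9 of the 23159 genes in a table of read counts. No measured value entered the choice rule, but earlier results of these data were known when it was made. RNA-seq was made from macrophages recovered by bronchoalveolar lavage, a wash of the airspaces, from wild-type (WT) mice and mice labelled as lacking TLR3, the endosomal receptor for double-stranded RNA. Each genotype had 4 control libraries and 4 libraries labelled as injured, taken following pneumonia, which gives 16 libraries in 4 groups.

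The labels name 4 groups by genotype and treatment. WT control and TLR3-KO control libraries carry no treatment in their labels, although the study's protocol mentions saline as the alternative to bacteria. WT injured and TLR3-KO injured libraries came from mice that received Klebsiella pneumoniae, a Gram-negative bacterium, as 500 CFU (colony-forming units, or live bacteria) in 30 µl delivered to the back of the throat under anaesthesia. The series title calls the mice male. The allele behind the TLR3 loss, the strain, the age and the time of lavage after inoculation are not given in the sources used here, and neither is whether each library came from 1 mouse or a pool. The p-values below therefore measure the spread between libraries.

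CC chemokines act on G protein-coupled receptors on leukocytes. In the airspace, resident alveolar macrophages are an early source of them during bacterial infection. Ccl2 and Ccl7 draw monocytes through Ccr2, Ccl3 and Ccl4 draw monocytes, T cells and other leukocytes, with Ccr1 among the receptors of Ccl3, Ccl6 and Ccl9 act on Ccr1, Ccl17 and Ccl22 draw T cells through Ccr4, and Ccl24 draws eosinophils through Ccr3. Several of the inflammatory ligands are classical targets of the transcription factor NF-kB, whereas Ccl17, Ccl22 and Ccl24 are known as ligands that interleukin-4 (IL-4) and STAT6 can raise.

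Counts per library summed to between 29667102 and 59640251. Tlr3 checked the genotype labels: it had 91 to 226 counts in the 8 WT libraries and 13 to 34 in the 8 TLR3-KO libraries, which do not overlap. The libraries of TLR3-KO controls 1 to 3 held Xist, a transcript of the inactive X chromosome in females, at 20.3 to 42.3 CPM (counts per 1000000 counts of the library), against at most 0.230 CPM in every other library, so those 3 libraries went against the series' description as male. All 14 listed alveolar macrophage markers were present in every group, with summed levels of 27626 to 36331 CPM led by Chi3l3 (Chil3) and Lpl. Summed eosinophil and natural killer cell markers stayed at or below 1.54 and 2.85 CPM, T cell markers reached 13.5 CPM and B cell markers 40.5 CPM. Epx, the eosinophil peroxidase gene, had 0 counts in all 16 libraries.

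The chemokine genes sit mostly in clusters (coordinates from GENCODE M21 on mm10, the build the submitters' processing notes name). Ccl2 (chr11:82035571-82037453, plus strand) and Ccl7 (chr11:82045712-82047525, plus strand) are neighbours. A second group on the same chromosome holds Ccl9 (chr11:83572919-83578636, minus strand), Ccl6 (chr11:83587882-83593087, minus strand), Ccl3 (chr11:83647844-83649355, minus strand) and Ccl4 (chr11:83662584-83664683, plus strand). Ccl22 (chr8:94745590-94751699, plus strand) and Ccl17 (chr8:94810453-94812036, plus strand) lie on the chromosome of Tlr3, about 49.3 and 49.4 Mb from it. Ccl24 (chr5:135569937-135573049, minus strand) lies alone. An antisense gene overlaps Ccl2 (Gm17268) and another overlaps Ccl6 (E230016K23Rik), neither sharing an exon base with it in this annotation. No source used here states whether counting used strand, and reads of such overlapping pairs cannot be told apart by strand.

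Promoter sequence was read from RefSeq (GRCm38.p6) for the 250 bases before the transcription start, in the gene's own direction, and 5 of the 9 members matched an entry (Ccl3, Ccl6, Ccl9, Ccl17 and Ccl22). Those of Ccl3, Ccl17 and Ccl9 are shown because their transcripts differed among control libraries in 3 different ways, described below. Capitals mark every match to the motifs searched: TATAA on the gene's strand (TATA box), and on either strand GGG and TTCC with any 3 bases between them (NF-kB), TGANTCA (AP-1), TTC and GAA with any 4 bases between them (STAT6), TTCNNNGAA (other STAT proteins) and GAGGAA (PU.1, the macrophage lineage factor). The lines give Ccl3 at chr11:83649379-83649628 (minus strand), Ccl17 at chr8:94810203-94810452 (plus strand) and Ccl9 at chr11:83578637-83578886 (minus strand).
Ccl3: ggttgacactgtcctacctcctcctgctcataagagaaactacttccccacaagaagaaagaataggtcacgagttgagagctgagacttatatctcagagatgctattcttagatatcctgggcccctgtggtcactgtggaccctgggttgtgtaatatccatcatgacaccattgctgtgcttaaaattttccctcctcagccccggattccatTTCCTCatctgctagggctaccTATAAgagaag
Ccl17: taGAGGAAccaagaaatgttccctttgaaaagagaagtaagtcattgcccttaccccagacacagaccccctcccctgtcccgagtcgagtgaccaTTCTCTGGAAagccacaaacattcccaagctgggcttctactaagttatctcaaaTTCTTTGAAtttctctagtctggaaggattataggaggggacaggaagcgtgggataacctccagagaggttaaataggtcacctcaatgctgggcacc
Ccl9: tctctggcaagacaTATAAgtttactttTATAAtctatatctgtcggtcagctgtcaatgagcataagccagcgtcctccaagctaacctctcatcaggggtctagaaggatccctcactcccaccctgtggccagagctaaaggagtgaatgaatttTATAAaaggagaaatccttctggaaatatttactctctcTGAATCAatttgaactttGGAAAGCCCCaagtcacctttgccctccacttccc

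The Ccl3 window held TATAA 11 bases before the RefSeq start and a PU.1 match on the opposite strand at 33 bases. That start lies upstream of the GENCODE start of Ccl3, so distances from the GENCODE start are longer. The Ccl17 window held the STAT6 match TTCTCTGGAA at 154 bases, the STAT match TTCTTTGAA at 99 bases and a PU.1 match at 248 bases. The Ccl9 window held 3 TATAA matches, an AP-1 match at 53 bases and an NF-kB match on the opposite strand at 35 bases. No motif matched in the Ccl6 window. The RefSeq start of Ccl22 lies inside the gene as GENCODE annotates it, so that window includes transcribed bases and was not used here. Among 32851 RefSeq promoters cut to the same length, TATAA occurred in 16%, the NF-kB letters in 4.6%, AP-1 in 6.7%, STAT6 in 5.9%, the shorter STAT motif in 7.0% and PU.1 in 23.3%. A match is a description of letters, not a binding site.

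Ccl6 dominated the chemokine transcripts of these macrophages. Levels between genes were compared per length, as CPM per kilobase of exon averaged over the 16 libraries. On that scale Ccl6 stood at 1608, Ccl3 at 160, Ccl4 at 35.3, Ccl22 at 28.6, Ccl9 at 27.4, Ccl17 at 9.61, Ccl2 at 4.31, Ccl7 at 1.12 and Ccl24 at 0.267 CPM per kilobase. The lowest Ccl6 library (964) lay above the highest Ccl3 library (504), whereas Ccl3, Ccl4, Ccl22 and Ccl9 overlapped one another across libraries. The 9 genes together took 0.190% to 0.495% of all counts, and Ccl6 alone made up 75.7% to 94.4% of the summed CPM of the 9. By CPM, Ccl6 ranked between 11th and 46th of all genes in every library.

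**Figure D1:**
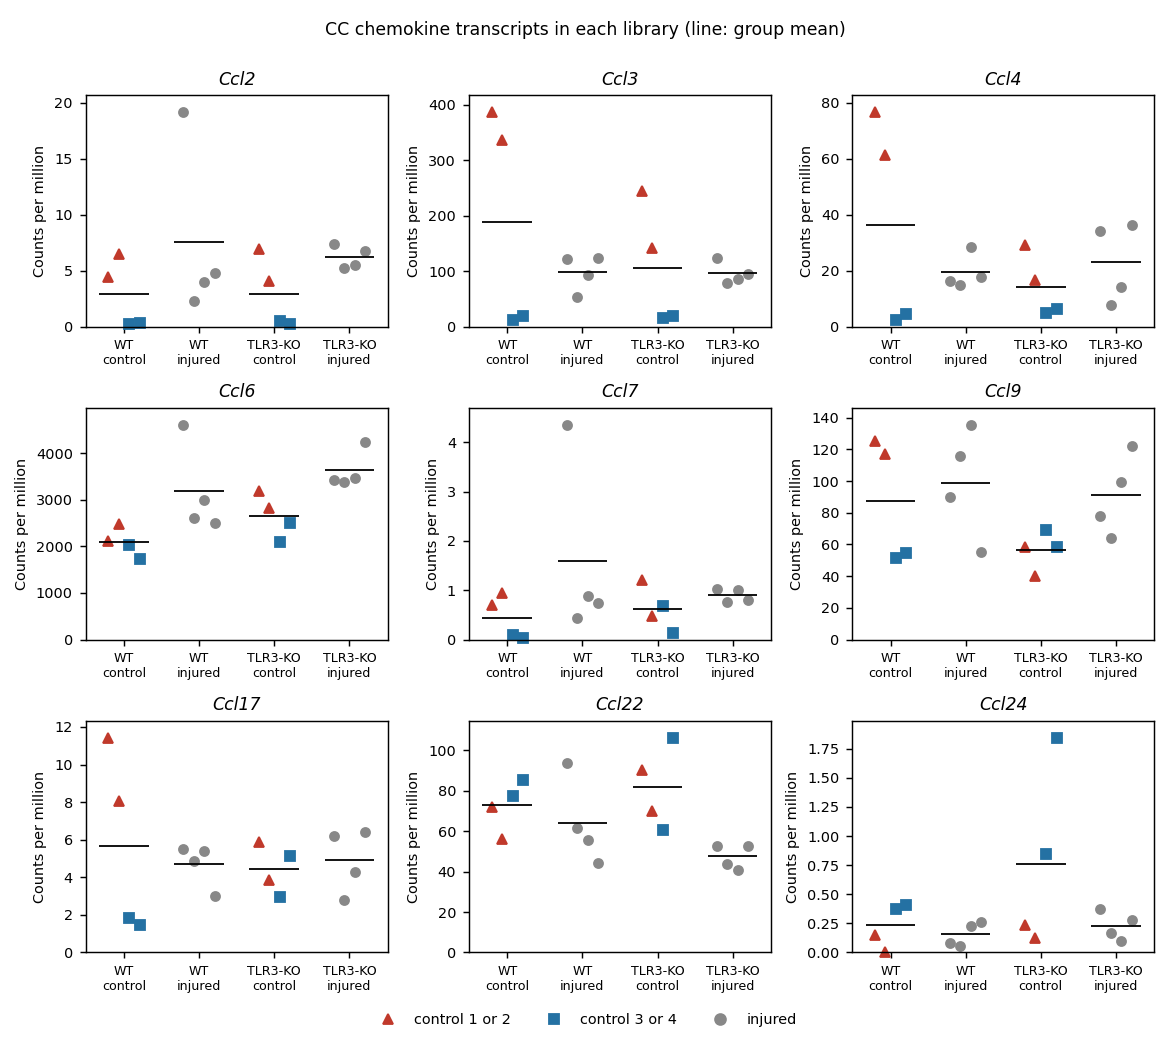
CPM of each chemokine gene in each of the 16 libraries (vertical axis, linear and starting at 0, scaled per gene) by group, with a line at the group mean; triangles are controls 1 and 2, squares are controls 3 and 4, and circles are injured libraries. For Ccl2, Ccl3 and Ccl4 the squares sit near 0 (at most 0.485, 20.2 and 6.21 CPM) while the triangles of the same groups are far above them.

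The controls did not behave as 1 group for the inflammatory chemokines. In both genotypes, controls 1 and 2 had several times more Ccl2, Ccl3 and Ccl4 than controls 3 and 4. The grouping by replicate number came from earlier work on these same data, and the labels give no batch, date or treatment that goes with it, so these differences are described with no test. Among all 12455 genes tested, controls 1 and 2 of both genotypes lay above controls 3 and 4 of both without overlap for 9.22% and below them for 20.4%. Of the 9 members, 3 were above (Ccl2, Ccl3 and Ccl4) and 1 was below (Ccl24), which is 4 of 9 against a background of 29.6% in either direction. A mean at least 4-fold higher in controls 1 and 2 in both genotypes was met by 0.241% of genes, a total of 30, and these included Ccl2, Ccl3 and Ccl4. This cut-off was not planned in advance, and Ccl4 met it narrowly (4.09-fold in TLR3-KO). A mean at least 4-fold lower was met by 0.715% of genes, Ccl24 among them.

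Ccl3, the most abundant of the inducible members, showed this most plainly. WT controls 1 to 4 had 386, 338, 12.8 and 20.2 CPM. TLR3-KO controls 1 to 4 had 245, 143, 16.5 and 19.6 CPM. Controls 1 and 2 thus averaged 21.9-fold more Ccl3 than controls 3 and 4 in WT and 10.8-fold more in TLR3-KO. Injured libraries 1 to 4 had 121, 53.9, 92.8 and 123 CPM in WT and 124, 78.1, 85.7 and 95.8 CPM in TLR3-KO. All 8 injured libraries lay above every one of controls 3 and 4 and below every one of controls 1 and 2. A position between the control pairs, whichever pair was higher, was met by 0.859% of genes tested. Group means were 189 ± 200 CPM for WT controls, 97.8 ± 32.4 for WT injured, 106 ± 110 for TLR3-KO controls and 96.0 ± 20.3 for TLR3-KO injured (SD, n = 4 each).

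Ccl4, which lies beside Ccl3 and encodes a closely related ligand, had 76.6, 61.4, 2.34 and 4.47 CPM in WT controls 1 to 4 and 29.3, 16.9, 5.08 and 6.21 CPM in the TLR3-KO controls. The difference between control pairs was 20.3-fold in WT and 4.09-fold in TLR3-KO. Injured libraries had 16.5, 15.0, 28.6 and 17.7 CPM in WT and 34.1, 7.82, 14.3 and 36.3 CPM in TLR3-KO. Each exceeded all of controls 3 and 4, but only 4 of the 8 lay below all of controls 1 and 2. The ratio of Ccl3 to Ccl4 CPM ranged from 2.64 to 9.98 over the 16 libraries, so the pair did not keep a fixed proportion.

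Ccl2, the main monocyte chemoattractant of the set, had 4.43, 6.49, 0.271 and 0.356 CPM in WT controls 1 to 4 and 6.94, 4.12, 0.485 and 0.230 CPM in TLR3-KO controls. Controls 1 and 2 were 17.4-fold above controls 3 and 4 in WT and 15.5-fold in TLR3-KO. In the injured groups it had 19.1, 2.32, 4.00 and 4.78 CPM in WT and 7.36, 5.24, 5.53 and 6.77 CPM in TLR3-KO. All 8 injured libraries were above controls 3 and 4, and WT injured library 1 was above every other library. Between 10 and 740 counts lay behind these values.

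Ccl7, the neighbour of Ccl2 and a ligand of the same receptor, was near the floor of detection, with 1 to 168 counts per library. WT controls 1 to 4 had 0.704, 0.937, 0.0985 and 0.0274 CPM, so controls 1 and 2 averaged 13-fold more than controls 3 and 4. TLR3-KO controls had 1.21, 0.484, 0.675 and 0.138 CPM, and there the pairs overlapped. Injured libraries had 4.35, 0.442, 0.891 and 0.737 CPM in WT and 1.04, 0.761, 1.01 and 0.811 CPM in TLR3-KO, with the same WT injured library 1 highest for Ccl7 as for Ccl2.

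**Figure D2:**
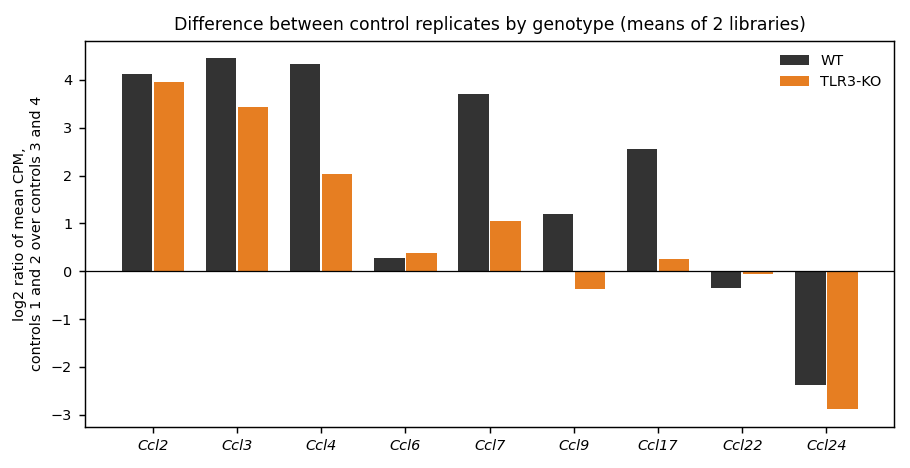
log2 ratio of mean CPM in controls 1 and 2 over controls 3 and 4 (vertical axis) for each chemokine gene (horizontal axis), in WT and TLR3-KO; each bar compares 2 libraries with 2 and carries no error bar. Ccl2, Ccl3 and Ccl4 rise above 0 in both genotypes, Ccl24 lies below 0 in both, and Ccl17 (5.90-fold and 1.20-fold as ratios) and Ccl9 (2.28-fold and 0.771-fold) differ between the genotypes.

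Ccl17 and Ccl9 split among WT controls but not in the same way among TLR3-KO controls. Ccl17, a Ccr4 ligand, had 11.4, 8.06, 1.85 and 1.45 CPM in WT controls 1 to 4, a 5.90-fold difference between the pairs. In TLR3-KO controls it had 5.85, 3.87, 2.97 and 5.13 CPM, and the pairs overlapped. Ccl9, a Ccr1 ligand, had 125, 117, 51.7 and 54.6 CPM in WT controls, with controls 1 and 2 at 2.28 times the level of controls 3 and 4. In TLR3-KO controls it had 58.7, 40.1, 69.3 and 58.7 CPM, where the ratio of controls 1 and 2 to controls 3 and 4 was 0.771 and the nearest libraries of the pairs were almost equal. Whether the split differed between genotypes was not tested.

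Ccl6, Ccl22 and Ccl24 complete the set. Ccl6 differed little between control pairs, by 1.22-fold in WT and 1.31-fold in TLR3-KO. Ccl22, which shares Ccr4 and a chromosomal neighbourhood with Ccl17, had a ratio of 0.789 in WT and overlapping pairs in TLR3-KO (ratio 0.961). Ccl24 ran the other way from Ccl3: WT controls 1 to 4 had 0.151, 0, 0.369 and 0.411 CPM and TLR3-KO controls had 0.237, 0.126, 0.843 and 1.84 CPM, so controls 3 and 4 were 5.17-fold and 7.39-fold above controls 1 and 2. These Ccl24 values rest on 0 to 80 counts per library, and the 0 in WT control 2 allows a level of up to 0.0685 CPM (3 counts, counting error only).

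Plots of neighbouring genes against each other separate the members that shared the split from those that did not. The ratio of Ccl22 to Ccl17 was 6.33 and 6.99 in WT controls 1 and 2 and 42.0 and 58.7 in WT controls 3 and 4. In the other 12 libraries that ratio lay between 8.21 and 20.7.

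**Figure D3:**
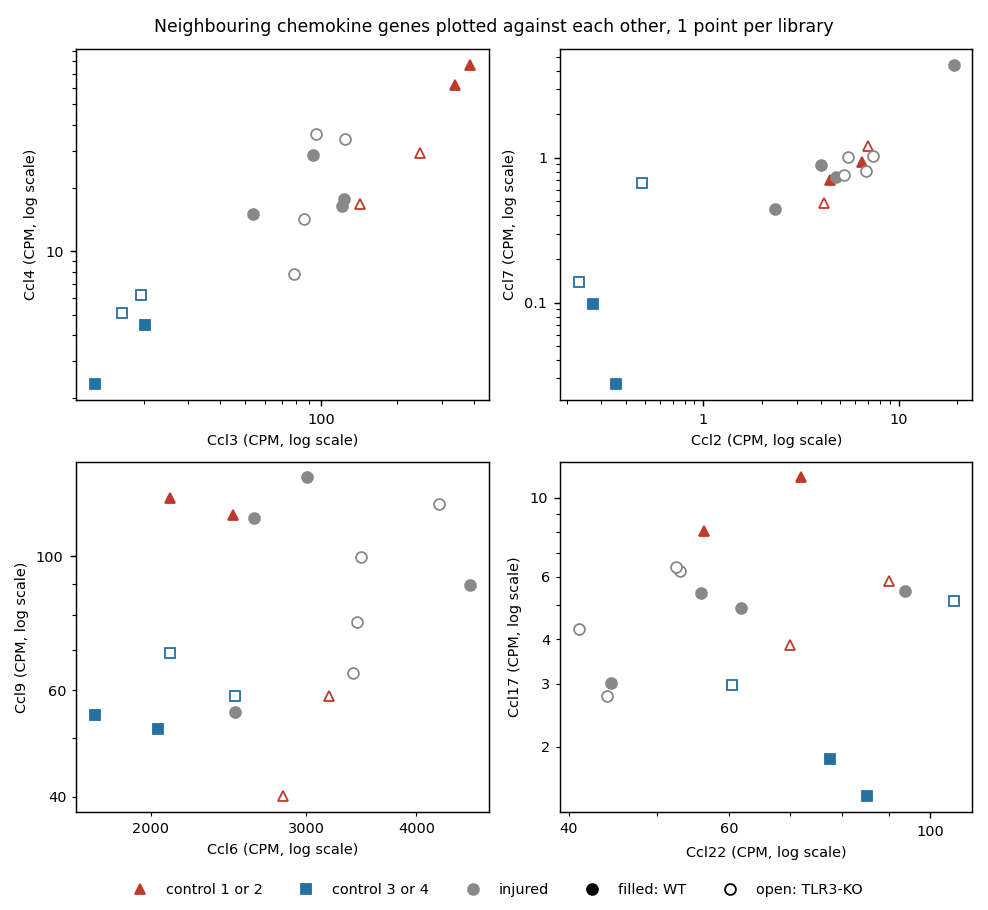
CPM of 4 pairs of chemokine genes that neighbour each other, 1 point per library on log axes; triangles are controls 1 and 2, squares controls 3 and 4, circles injured libraries, filled for WT and open for TLR3-KO. In the Ccl3 and Ccl4 panel the squares lie at the lower left and the WT triangles at the upper right, whereas in the Ccl22 and Ccl17 panel the WT controls spread along the Ccl17 axis.

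Other transcripts moved with the control split. Of 14 NF-kB subunits and feedback inhibitors, all tested, 8 were higher in controls 1 and 2 of both genotypes than in controls 3 and 4 without overlap (background 9.22%) and 1 was lower. Among those higher, Nfkb2, a subunit of the noncanonical pathway, had 349 to 530 CPM against 154 to 288. Rela, the canonical activating subunit, had 215 to 302 CPM against 121 to 166. Nfkbia, the feedback inhibitor and the most abundant of the list at a mean of 462 CPM, overlapped. The lower one was Tnip3, at 7.74 to 11.6 CPM against 14.2 to 23.1.

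Of 14 tested genes of the IL-4 receptor, STAT6 and alternative activation list, 4 were higher in controls 1 and 2 (Il4ra, Jak3, Mrc1 and Tgm2), against 9.22% of all genes, and none was lower, against 20.4%. Tgm2, a transglutaminase, had 1415 to 1870 CPM against 879 to 1354, and Mrc1, the mannose receptor, had 544 to 687 CPM against 266 to 495. Chi3l3 overlapped. Summed markers of recruited monocyte-macrophages were 605 to 916 CPM in controls 1 and 2 and 302 to 591 CPM in controls 3 and 4, and most of each sum was Fn1, fibronectin, which alveolar macrophages also express. Ms4a7, the next marker of that list, had 7.81 to 9.32 CPM in controls 1 and 2 and 6.37 to 12.6 CPM in controls 3 and 4. The part of these differences in the chemokine values was not tested. In RNA from bulk cells, fewer cells of a type and less RNA per cell cannot be told apart.

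Receptors for these ligands were also measured. Ccr1, which binds Ccl3, Ccl6 and Ccl9, was the most abundant of 14 listed CC receptors at a mean of 207 CPM, and its control pairs overlapped. Ccrl2, an atypical receptor-like gene, had 84.7 to 170 CPM in controls 1 and 2 and 27.4 to 48.6 CPM in controls 3 and 4. Ccr7 averaged 8.87 CPM. Receptors of Ccl2 and Ccl7, of Ccl24, and of Ccl17 and Ccl22, named for their ligands, were low: Ccr2 averaged 2.48 CPM, Ccr3 0.166 CPM and Ccr4 0.164 CPM. Of 12 further CC ligands in the table only Ccl5, Ccl25 and Ccl27a passed the filter on low counts, with means of 1.32, 2.32 and 0.359 CPM.

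The comparison of injured with control macrophages asked how each chemokine responded to pneumonia in each genotype. TLR3-KO injured libraries had at most 0.139 CPM of Xist, against 20.3 to 42.3 CPM in TLR3-KO controls 1 to 3. For those controls, differences that go with pneumonia and with Xist cannot be told apart. None of the 9 members passed in either genotype with edgeR's quasi-likelihood test, Benjamini-Hochberg adjusted over all 12455 genes at 0.05. In WT that is 0 of 9 against 0% of all genes, and at an unadjusted p under 0.05 it is 1 of 9 (Ccl6) against 10.7%. In TLR3-KO it is 0 of 9 against 1.09%, and 1 of 9 (Ccl22) against 23.9% unadjusted. DESeq2 called none in WT, against 1.36% of genes, and 1 of 9 (Ccl22) in TLR3-KO, against 8.28%, so the member count is near that background. The median log2 fold change of the 9 was -0.29 in WT and 0.38 in TLR3-KO, beside 0.0097 and -0.013 over all genes tested.

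Ccl22 came nearest. TLR3-KO controls 1 to 4 had 90.1, 70.0, 60.6 and 106 CPM, and TLR3-KO injured libraries had 53.0, 44.0, 41.0 and 52.5 CPM. Every injured library lay below every control, which 3.05% of genes tested did in that direction (6.32% on CPM scaled by TMM factors, a correction for library composition, where Ccl22 also did not overlap). The log2 fold change was -0.84 (SE 0.21, 95% interval -1.29 to -0.40), a 1.79-fold lower level, with an adjusted p of 0.0550 in edgeR. DESeq2 gave an adjusted p of 0.00697 for the same contrast. The edgeR call was reached without TLR3-KO control 2 (adjusted p = 0.0306), a fit that called 1238 of 12600 genes. With controls 3 and 4 alone it was also reached (adjusted p = 0.0321), in a fit that called 4108 of 12783 genes. The fit with all libraries called 136 of 12455. The edgeR adjusted p of Ccl22 ranged from 0.0306 to 0.192 when each library was left out in turn.

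In WT, Ccl22 had 72.1, 56.3, 77.6 and 85.2 CPM in controls and 93.7, 61.9, 55.8 and 44.5 CPM after pneumonia, which overlap. Its log2 fold change there was -0.29 (SE 0.21, adjusted p = 0.619). The difference between the genotypes' responses was -0.55 on the log2 scale (SE 0.29, 95% interval -1.17 to 0.08, adjusted p = 0.323), so a difference between genotypes was not shown. TLR3-KO controls 1 to 3, the libraries with Xist, had 60.6 to 90.1 CPM of Ccl22, and control 4, without it, had 106. Summed dendritic cell markers, led by Ccr7 and Batf3, were 33.7 to 54.8 CPM in TLR3-KO controls and 32.1 to 37.3 CPM in TLR3-KO injured libraries, which overlap, and their part in the Ccl22 difference was not tested.

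Ccl6 had higher CPM after pneumonia in both genotypes, at a size that depended on scaling. WT controls 1 to 4 had 2106, 2478, 2038 and 1730 CPM and WT injured libraries 4596, 2617, 3004 and 2495 CPM. TLR3-KO controls had 3183, 2827, 2102 and 2493 CPM and TLR3-KO injured libraries 3428, 3391, 3457 and 4240 CPM. Injured and control libraries did not overlap in either genotype on this scale, which 3.83% of genes met in WT and 11.2% in TLR3-KO in the higher direction. After scaling by TMM factors they overlapped in both genotypes.

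The Ccl6 log2 fold change was 0.48 in WT (SE 0.20, 95% interval 0.05 to 0.92, adjusted p = 0.416 in edgeR) and 0.38 in TLR3-KO (SE 0.20, 95% interval -0.06 to 0.81, adjusted p = 0.265). Without WT injured library 1 the WT value was 0.24. Summed neutrophil markers, led by Csf3r and Mmp8, were 82.7 to 290 CPM in WT injured libraries and 47.5 to 84.7 CPM in WT controls, and 117 to 203 CPM in TLR3-KO injured libraries against 63.7 to 98.5 CPM in TLR3-KO controls. WT injured library 1, with the most Ccl6, had the lowest of the injured neutrophil sums (82.7 CPM). TLR3-KO injured library 4, with the most Ccl6 of its group, had that group's highest sum (203 CPM). The part of neutrophil RNA in the Ccl6 difference was not tested.

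For Ccl2, Ccl3, Ccl4, Ccl7 and Ccl17 the fold change after pneumonia took its size, and for several its sign, from which controls entered. With all 4 controls the log2 fold change of Ccl3 was -1.13 in WT (SE 0.95) and -0.26 in TLR3-KO (SE 0.94), with adjusted p-values of 0.687 and 0.878 in edgeR. With controls 1 and 2 alone it was -2.07 in WT (adjusted p = 0.00301) and -1.13 in TLR3-KO (adjusted p = 0.103). With controls 3 and 4 alone it was 2.54 in WT (adjusted p = 0.0194) and 2.41 in TLR3-KO (adjusted p = 0.00113). The same injured libraries therefore had less Ccl3 than 1 pair of WT controls and more than the other. The pairs were taken from these data and Ccl3 itself separates them, so the p-values against each pair are only a description.

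Against controls 1 and 2 alone, Ccl4 (-2.01, adjusted p = 0.0206) and Ccl17 (-1.24, adjusted p = 0.0295) were also lower in WT injured macrophages, and no member passed in TLR3-KO. Against controls 3 and 4 alone, Ccl2 was higher in WT (log2 fold change 4.55, adjusted p = 0.0486) and in TLR3-KO (4.08, adjusted p = 0.00521). In that fit TLR3-KO injured libraries also had more Ccl4 (2.03, adjusted p = 0.0168) and Ccl6 (0.65, adjusted p = 0.0443), and less Ccl22 (-0.81, adjusted p = 0.0321) and Ccl24 (-2.49, adjusted p = 0.00684). These fits called 1631 of 12689 genes in WT with controls 1 and 2 and 63 of 12783 with controls 3 and 4. In TLR3-KO they called 83 of 12689 and 4108 of 12783, so the choice of controls moved calls across the transcriptome. Each such fit compares 4 injured libraries with 2 controls, and the choice of pairs came from the data.

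**Figure D4:**
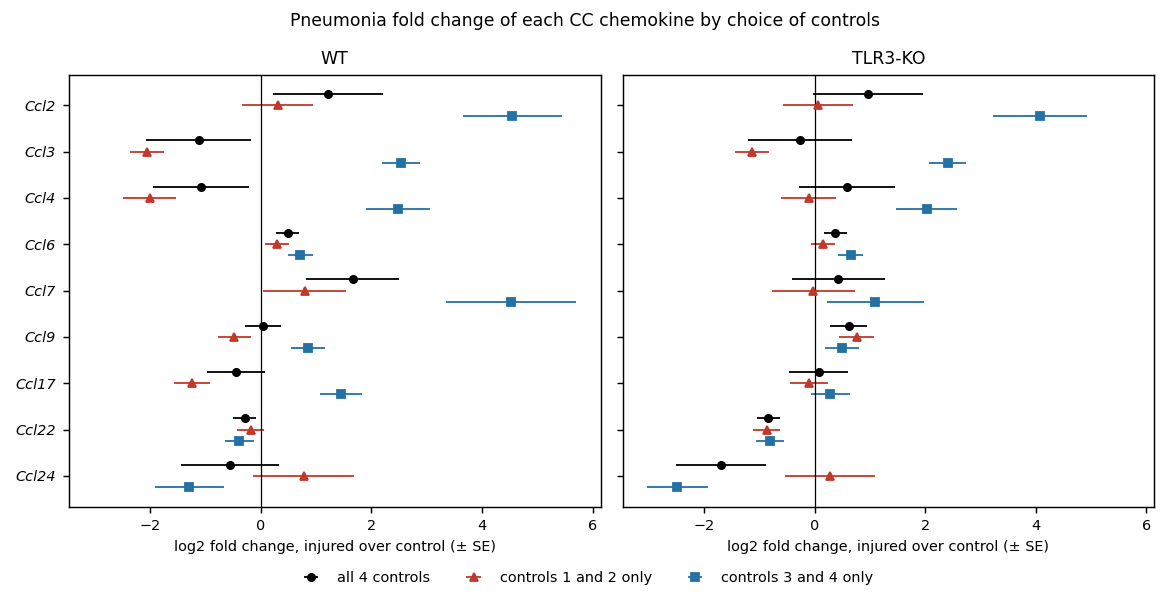
log2 fold change (injured over control, horizontal axis) with its SE for each chemokine gene, in WT and TLR3-KO, from edgeR fits with all 4 controls (circles), controls 1 and 2 only (triangles) or controls 3 and 4 only (squares). Ccl3 lies at -2.07 with one WT pair and 2.54 with the other, while Ccl22 lies between -0.86 and -0.81 in TLR3-KO in the 3 fits plotted.

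The remaining members with all 4 controls had wide intervals. Ccl2 had a log2 fold change of 1.21 in WT (SE 0.99) and 0.96 in TLR3-KO (SE 0.99), and Ccl4 had -1.08 (SE 0.87) and 0.58 (SE 0.87). Ccl7 had 1.66 in WT (SE 0.84) and 0.43 in TLR3-KO (SE 0.84), and the WT value was 0.45 without injured library 1. That library also carried most of the Ccl2 value, which was 0.18 in WT without it. For Ccl9 the values were 0.03 (SE 0.33) and 0.61 (SE 0.33), for Ccl17 -0.45 (SE 0.53) and 0.07 (SE 0.53), and for Ccl24 -0.56 (SE 0.88) and -1.70 (SE 0.81). Their adjusted p-values in edgeR lay between 0.215 and 0.977.

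Injured libraries had 89.7, 116, 135 and 55.2 CPM of Ccl9 in WT and 77.8, 64.2, 99.7 and 122 CPM in TLR3-KO. In TLR3-KO 3 of the 4 exceeded all 4 controls. Ccl17 after pneumonia had 5.48, 4.89, 5.39 and 3.02 CPM in WT and 6.21, 2.77, 4.28 and 6.40 CPM in TLR3-KO, all inside the span of the 4 WT controls. Ccl24 had 0.0776, 0.0552, 0.228 and 0.265 CPM in WT and 0.376, 0.169, 0.101 and 0.278 CPM in TLR3-KO, all below the level in TLR3-KO controls 3 and 4.

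The coefficient of variation of Ccl3 was 106% and 104% in the control groups of WT and TLR3-KO, against 33.1% and 21.2% in the injured groups. For Ccl2 it was 107% and 109% in the controls, 103% in WT injured and 16.2% in TLR3-KO injured libraries. Ccl6 stayed between 11.2% and 30.5% in all 4 groups.

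Comparing genotypes among controls, no member passed (0 of 9 against 0.658% of genes in edgeR, and none against 6.11% in DESeq2), and 1 of 9 (Ccl9) had an unadjusted p under 0.05 against 19.8% of genes. Ccl9 was lower in TLR3-KO controls by a log2 difference of -0.73 (SE 0.33, adjusted p = 0.243), with means of 56.7 ± 12.2 against 87.1 ± 39.4 CPM (SD, n = 4 each) and overlapping libraries. With controls 3 and 4 alone the difference was 0.20. Ccl24 had a log2 difference of 1.64 (SE 0.81, adjusted p = 0.271), which was 0.79 without TLR3-KO control 4. TLR3-KO controls 1 to 3 held Xist and the WT controls did not. For those libraries, differences that go with genotype and with Xist cannot be told apart. Same-numbered controls deviated together, and Ccl6 and Ccl24 were higher in TLR3-KO in 4 of 4 such pairs, as were 29.3% of all genes, while no member was lower in all 4 (12.5% of genes). With the replicate number as a block, Ccl6 had a log2 difference of 0.25 (SE 0.18, adjusted p = 0.438 in edgeR) and Ccl24 of 1.51 (SE 0.62, adjusted p = 0.211).

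After pneumonia, again none of 9 passed between genotypes (background 0.602% in edgeR, and none against 3.56% in DESeq2), and 1 of 9 (Ccl22) had an unadjusted p under 0.05 against 16% of genes. Ccl22 was lower in TLR3-KO injured than in WT injured libraries by a log2 difference of -0.45 (SE 0.21, adjusted p = 0.304), and the groups overlapped. The interval of each other member included 0, from Ccl6 (0.16, 95% interval -0.27 to 0.59) to Ccl2 (-0.31, 95% interval -2.38 to 1.75). These widths leave differences of more than 2-fold unresolved for Ccl2, and also for Ccl3, Ccl4, Ccl7, Ccl17 and Ccl24.

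The test of whether the pneumonia response differed by genotype called none of 9 members, against 0% of all genes in edgeR, with 0 of 9 at an unadjusted p under 0.05 (background 17.7%) and none by DESeq2 (background 0.763%). Ccl4 had the widest separation of estimates, with a difference of 1.66 on the log2 scale (SE 1.23, 95% interval -0.95 to 4.27, adjusted p = 0.445). Adjusted p-values for the 9 members in this test lay between 0.323 and 0.927. TLR3-KO controls 1 to 3, which held Xist, entered this test, so a part that goes with Xist cannot be told apart in it.

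None of the 3 further CC ligands, 9 receptors, 14 NF-kB genes and 14 IL-4 and STAT6 genes tested passed in any of the 5 comparisons in edgeR. Unadjusted p-values under 0.05 were counted for 2 of the 9 receptors, none of the NF-kB genes and 2 of the IL-4 and STAT6 genes in WT after pneumonia, against 10.7% of all genes. In TLR3-KO they were counted for 1, 0 and 5 of them, against 23.9%. DESeq2 called none of these 4 lists in WT after pneumonia or for the difference of responses, and 2 of the 14 IL-4 and STAT6 genes in TLR3-KO after pneumonia (Il4ra and Pdcd1lg2, background 8.28%). Between control genotypes it called 1 of 9 receptors (Ccr7), 1 of 14 NF-kB genes (Tnfaip3) and 3 of 14 IL-4 and STAT6 genes (Arg1, Il13ra1 and Jak1), against 6.11% of all genes. Between injured genotypes it called 2 of 9 receptors (Ccr1 and Ccr4), against 3.56%. Il4ra, the IL-4 receptor chain, was the nearest in TLR3-KO, at a log2 fold change of 0.54 (SE 0.14, adjusted p = 0.0666). Ccr1 was the nearest in WT among the receptors, at 0.63 (SE 0.19, adjusted p = 0.245). Ccl5, a further Ccr1 ligand, had a log2 fold change of 1.02 in TLR3-KO (SE 0.45, adjusted p = 0.185) and 0.20 in WT (SE 0.45).

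Genes with the most similar profiles were sought for each member by Pearson's r of log2 CPM over the 16 libraries, among 8843 genes with a mean of at least 5 CPM. These libraries include the control pairs that stood apart, so likeness for Ccl2, Ccl3 and Ccl4 reflects that split as well as the other groups, and r is given as a description. Nearest to Ccl3 were Plk3 (r = 0.98), Zfand5 (0.97) and C5ar1 (0.97), the last encoding the receptor for complement C5a. Nearest to Ccl2 were St3gal4, Gm6377 and Dusp5 (0.96 each), and nearest to Ccl4 were Ccrl2 (0.95), Cish (0.94) and the NF-kB regulator Nfkbiz (0.94).

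Ccl17 was nearest to Ccl4 (0.89), F10 (0.87) and Cxcl2 (0.85), and Ccl9 to Cxcl3 (0.86), Gm11428 (0.84) and Fas (0.82). Cxcl2 and Cxcl3 encode neutrophil chemoattractants. Cxcl2 ranged from 45.4 to 813 CPM over WT controls and from 62.1 to 279 CPM over TLR3-KO controls, and Cxcl3 from 18.8 to 619 and from 19.6 to 107 CPM. Ccl22 was nearest to Tnfsf12 (0.96), Sin3b (0.86) and Lgals3 (0.86), which encodes galectin 3. Lgals3 averaged 4506 CPM in TLR3-KO controls and 2949 CPM in TLR3-KO injured libraries, and the ranges of these groups (3720 to 5415 and 2704 to 3460 CPM) did not overlap. Those of Tnfsf12 (38.9 to 56.4 and 32.3 to 40.4 CPM) and Sin3b (149.8 to 195 and 122 to 159 CPM) did.

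Ccl6 was nearest to Timm22 (0.93), Uqcrfs1 (0.92) and 3110082I17Rik (0.92), the first 2 being nuclear genes for mitochondrial inner membrane proteins. Ccl7 was nearest to Uck2 (0.91), 4930523C07Rik (0.88) and H3f3b (0.88), and Ccl24 to Hhex (0.79), Nudt13 (0.78) and Cebpd (0.78). For these low genes few counts enter the profile.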

How the data were processed

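Macrophages from lavage were sequenced as 50-base paired-end mRNA libraries, per the labels' protocols, and the values used are the read counts per gene that the authors deposited in 1 table of 16 libraries. The submitters' processing notes name mm10, FastQC 0.11.3, TopHat2 2.0.13, Bowtie2 2.2.1 and Cuffdiff 2.1.1. The counting settings are not given in the sources used here. The series' design text speaks of 15 samples and the table holds 16, all of which were used.

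CPM are counts per 1000000 of a library's total count, with no other scaling unless TMM is named. One model of all 4 groups was fitted with edgeR 4.0.16 (R 4.3.3) on the 12455 genes that passed filterByExpr with a minimum count of 10, using TMM factors (0.896 to 1.07) and the quasi-likelihood test with a robust prior, with Benjamini-Hochberg adjustment across those genes and a threshold of 0.05. All 9 members passed the filter. The robust prior was set after seeing the data and the other setting is among the alternatives. Intervals are 95%. DESeq2 1.42.0 was an alternative, as were RLE factors, raw totals, other filters, a replicate block, fits of 2 groups only, subsets of controls and leaving out each library. The code was tested on simulated counts.

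No pair of libraries of a group was close to a duplicate (chi-square per degree of freedom 8.04 to 303). Same-numbered controls of the 2 genotypes deviated together (r over genes 0.478 to 0.602), and 7 of 8 correlated best with their own number. In TLR3-KO injured against control 6 of 8 did (r -0.068 to 0.341), and in the other comparisons none did. The labels do not say that a number pairs mice.

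The members and gene lists were chosen with earlier results of these data known. Named are all 9 members, the 3 most abundant genes of each list with any called, the 3 genes most alike each member, and the 2 most abundant markers of a list that moved with a member. Other genes are named for their role as receptors or were picked after their values were seen (Tnip3, Il4ra, Jak3, Epx and those DESeq2 called). Older symbols stand for Chil3 (Chi3l3), Siglecf and Plet1. Ly6g was not analysed here. Summed epithelial markers ranged from 75.6 to 176 CPM.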

Additional observations from a re-analysis of the deposited data

Results flagged for a closer look

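In each group of 4 libraries, the gap between the highest or lowest library and its nearest neighbour was set against the group's range, for 36 combinations of gene and group. By chance about 1 in 20 such groups would exceed Dixon's critical value, and 3 did. Ccl2 in WT injured library 1 was 19.1 CPM, while the other 3 lay between 2.32 and 4.78 CPM (gap over range 0.854). Ccl7 in the same library was 4.35 CPM, against 0.442 to 0.891 CPM in the others (0.885). Ccl6 in TLR3-KO injured library 4 was 4240 CPM, against 3391 to 3457 CPM (0.923).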

How the results depend on the processing

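Over 45 values (9 members in 5 comparisons), 870 alternative values were computed. Of these, 791 kept direction and side of the threshold, 11 became significant in the same direction and 68 changed sign. None of the 45 values had been called at first. Among those that changed sign, Ccl3 after pneumonia also became significant in both genotypes with controls 3 and 4 only. In WT after pneumonia, 3 members passed with controls 1 and 2 only, where 1631 of 12689 genes did. With controls 3 and 4 only 2 members passed, as did 63 of 12783 genes. In TLR3-KO after pneumonia, 6 members passed with controls 3 and 4 only, where 4108 of 12783 genes did. With DESeq2 1 passed (Ccl22), as did 1031 of 12455 genes. When each library was left out in turn, 0 to 1 members passed. The 1 (Ccl22) passed without TLR3-KO control 2, where 1238 of 12600 genes did. The remaining alternatives that were run called 0 members in every comparison. With a filter of 5 CPM in 3 libraries, 7 members could be tested. Over all genes DESeq2 called 170 in WT and 1031 in TLR3-KO after pneumonia, 761 between genotypes in controls, 444 after pneumonia and 95 for the difference of responses, against 0, 136, 82, 75 and 0 with edgeR. With raw totals the count in TLR3-KO after pneumonia was 365, and the median log2 fold change of all genes was 0.119 in WT after pneumonia and 0.115 between control genotypes. Without the filter on low counts it was 44.

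With the replicate number as a block, 0 members passed in every comparison, the counts over all genes were 3, 11, 31, 21 and 0, and Ccl22 in TLR3-KO had an adjusted p of 0.0713 in edgeR. Same-numbered libraries correlated at -0.294 to -0.121 in WT injured against control, at -0.068 to 0.341 in TLR3-KO and at -0.341 to 0.077 between injured genotypes. Each library correlated best with its own number for 7 of 8 among controls, 6 of 8 in TLR3-KO, and none in the other comparisons. Under the block the log2 value of Ccl3 was 0.037 in WT and 0.69 in TLR3-KO after pneumonia, and that of Ccl2 was 0.16 between injured genotypes and 0.30 for the difference of responses.

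The sign changed in these other cases, on the log2 scale. With controls 1 and 2 only, WT after pneumonia gave -0.48 for Ccl9 and 0.77 for Ccl24, TLR3-KO after pneumonia gave -0.11 for Ccl4, -0.023 for Ccl7, -0.098 for Ccl17 and 0.27 for Ccl24, and the control genotypes gave -0.042 for Ccl7. With controls 3 and 4 only, WT after pneumonia gave 2.54 for Ccl3, 2.48 for Ccl4 and 1.45 for Ccl17, and TLR3-KO gave 2.41 for Ccl3. In that fit the control genotypes gave 0.14 for Ccl2, 0.060 for Ccl3, 0.67 for Ccl4, 0.20 for Ccl9, 1.20 for Ccl17 and -0.051 for Ccl22, and the difference of responses -0.13 for Ccl3, -0.45 for Ccl4, -0.36 for Ccl9 and -1.17 for Ccl17. With TLR3-KO control 4 as the only TLR3-KO control, taken to vary like the other groups, pneumonia gave 2.34 for Ccl3 and -0.018 for Ccl17, the control genotypes -1.92 for Ccl7, and the difference of responses 3.58 for Ccl2, 0.10 for Ccl6 and 1.07 for Ccl7. Raw totals gave 0.015 for Ccl2 between control genotypes. Causes other than the choice of samples were not tested.

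Leaving out each library in turn changed the sign in 17 of the values, given here as lowest to highest. After pneumonia the ranges were -0.16 to 0.29 for Ccl9 and -0.78 to 0.16 for Ccl17 in WT, and -0.63 to 0.62 for Ccl3 and -0.086 to 0.28 for Ccl17 in TLR3-KO. Between control genotypes they were -0.97 to 0.69 for Ccl2, -0.20 to 0.99 for Ccl7, -0.81 to 0.13 for Ccl17 and -0.012 to 0.22 for Ccl22. Between injured genotypes they were -0.61 to 0.72 for Ccl2, -0.27 to 0.085 for Ccl3, -0.062 to 0.51 for Ccl4, -1.17 to 0.36 for Ccl7, -0.34 to 0.027 for Ccl9 and -0.12 to 0.23 for Ccl17. For the difference of responses they were -1.003 to 0.78 for Ccl2, -0.22 to 0.13 for Ccl6 and -0.089 to 0.85 for Ccl17. For Ccl7 and Ccl24 the low counts limit every comparison.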

Other observations

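Cx3cl1, which encodes a CX3C chemokine made as a membrane-bound protein, lies between Ccl22 and Ccl17 (chr8:94772009-94782427, plus strand) and was looked at for that position. It averaged 37.1 CPM per kilobase over the 16 libraries, with a range of 19.2 to 61.7, above the means of both Ccl22 (28.6) and Ccl17 (9.61) on that scale. The antisense gene E230016K23Rik, which overlaps Ccl6, had 35 to 110 counts per library, beside at least 63132 counts for Ccl6.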
